A study of Canis lupus familiaris with 4 samples.

Results

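The genes for the proteins of the cytosolic ribosome were examined as a set in 2 canine mammary cancer cell lines, P114 and CMT-U27. Probes were taken where the gene name, or the symbol in brackets in the probe description, began with RPL or RPS followed by a digit, or was RPLP0, RPLP1, RPLP2 or RPSA. RPS6K kinases and names ending in L1 or P were left out, which removed 23 probes of 11 names. The rule found 99 of the 43603 probes on the array, under 54 of the 14098 gene names it carries. Of these 32 belong to the large subunit and 22 carry a small-subunit name. RPS19BP1, among the latter, encodes a protein that binds RPS19 and is not itself part of the ribosome. All 99 probes passed the filter on dim signal, which kept 28692 probes, and all 54 names could be tested. RPL5, RPL11, RPLP1 and RPS6 were not among the names the rule matched. Of the 54 names, 25 had 1 probe and 29 had several, and such a gene is given by its brightest probe unless another is named.

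From each line, stem-like cells had been sorted by 3 surface markers (Sca1, EpCAM and CD44). Group 1 was P114 cells kept with tumour-associated macrophages and group 2 was P114 cells in single culture, and the same 2 cultures were made of CMT-U27, all sampled on day 3. Each of 4 two-colour arrays carried the co-culture and the single culture of 1 line in different dyes. The co-culture was labelled with Cy3 on P114 replicate 1 and CMT-U27 replicate 2, and with Cy5 on P114 replicate 2 and CMT-U27 replicate 1. Every ratio is the log2 of co-culture over single culture. Its direction rests on the dye labels of the channels alone, since the record titles name the culture of channel 1 only, and the co-culture ratios of a line would change sign if its dye labels were reversed. Each record is labelled a biological replicate, but no separate cultures are named, so the spread between the 2 arrays of a line may be technical. They do not say how the macrophages were removed before RNA isolation. On 1 array, P114 replicate 1, 89.4% of spots in Cy3 and 91.7% in Cy5 stood well above background, against 57.9% to 65.7% in the channels of the other 3 arrays. Of 19 macrophage markers, between 2 and 4 stood above background in each channel of those 3 arrays. AIF1, CD163, CSF1R, ITGAM and PTPRC were among those that stood above background in none. On P114 replicate 1 all 19 did, in both cultures. The summed intensity of the 19 markers ran from 2080 to 3276 in the co-culture channels and from 2220 to 9413 in the single-culture channels. The highest sums, 8545 on P114 replicate 1 and 9413 on CMT-U27 replicate 2, were of single cultures in Cy5. On the latter channel 3 of 19 markers stood above background. As scanned, the median log2 ratio over all tested probes was -1.41 and -1.39 on these 2 arrays. The part of the summed intensity in the ratios below was not tested. All 10 measured epithelial and sort markers, EPCAM and CD44 among them, were above background in every channel.

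Cytosolic ribosomes are assembled from ribosomal RNA and a fixed set of proteins, most of them present in a single copy per particle, and their genes are among the most strongly expressed in growing cells. Their mRNAs begin with a tract of pyrimidines through which mTOR signalling adjusts their translation as a group. Because the proteins are needed in equal amounts, their mRNA levels usually move together, and shifts of the whole group are read as a sign of changed growth or protein synthesis. On these arrays 47 of the 54 brightest probes lay in the brightest 20% of tested probes, and 61 of all 99 lay in the brightest 1%.

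Whether ribosomal protein mRNAs were higher or lower in co-culture depended on how the 2 dyes were scaled to each other. As scanned, with background correction alone, the median log2 ratio of the 54 genes was -1.18 and 0.17 for replicates 1 and 2 of P114, and 1.58 and -0.82 for those of CMT-U27. All 54 genes were below 0 on P114 replicate 1 and on CMT-U27 replicate 2, the arrays with the co-culture in Cy3, while 40 were above 0 on P114 replicate 2 and 53 on CMT-U27 replicate 1. The medians over all 28692 tested probes were -1.41, 0.03, 0.63 and -1.39 in the same order. On each array the ribosomal protein genes thus lay above the middle of all probes. In such bulk RNA a lower share of cells of a type and less RNA per cell cannot be told apart.

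After each array was centred on the median of its spots, ribosomal protein genes stood higher in the CMT-U27 co-culture. The median over the 54 genes was 1.60 on replicate 1 and 1.28 on replicate 2, and all 54 genes were above 0 on both arrays, as were 73.6% of all tested probes. In the limma fit under this centring the median was 1.43, or 2.70-fold, with 52 of 54 genes higher and 0 lower at an adjusted p under 0.05. Of all tested probes 60.4% were called, 59.3% higher and 1.11% lower, and of the 5739 probes in the brightest 20% 5729 were called higher. The 2 genes not called were RPLP2 at 0.08 (SE 0.18, adjusted p = 0.704 in limma) and RPL22 at 0.40 (SE 0.17, adjusted p = 0.0577), both outside the brightest 20%. The 22 small-subunit names had a median of 1.43 and the 32 large-subunit names one of 1.43. Over both lines, 37 genes were above 0 on all 4 centred arrays, as were 33% of all tested probes.

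In P114 the centred ratios were smaller, and none passed the test. Replicate 1 had a median of 0.53 with 53 genes above 0, and replicate 2 a median of 0.14 with 38 above 0. In limma the median was 0.35 (1.28-fold), with 53 of 54 above 0, and 0 genes were called, against 0.0174% of all tested probes. Of the 54, 18 had an unadjusted p under 0.05, as had 22.5% of all tested probes. The difference between lines under centring had a median of 1.06, with 51 of 54 genes called higher in CMT-U27. Of all tested probes 43.4% were called, 43% higher and 0.38% lower. Centring moved the median of all tested probes to 0.16 in P114 and 0.68 in CMT-U27. The 4-array plot of the 3 scalings sets these values side by side.

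**Figure D1:**
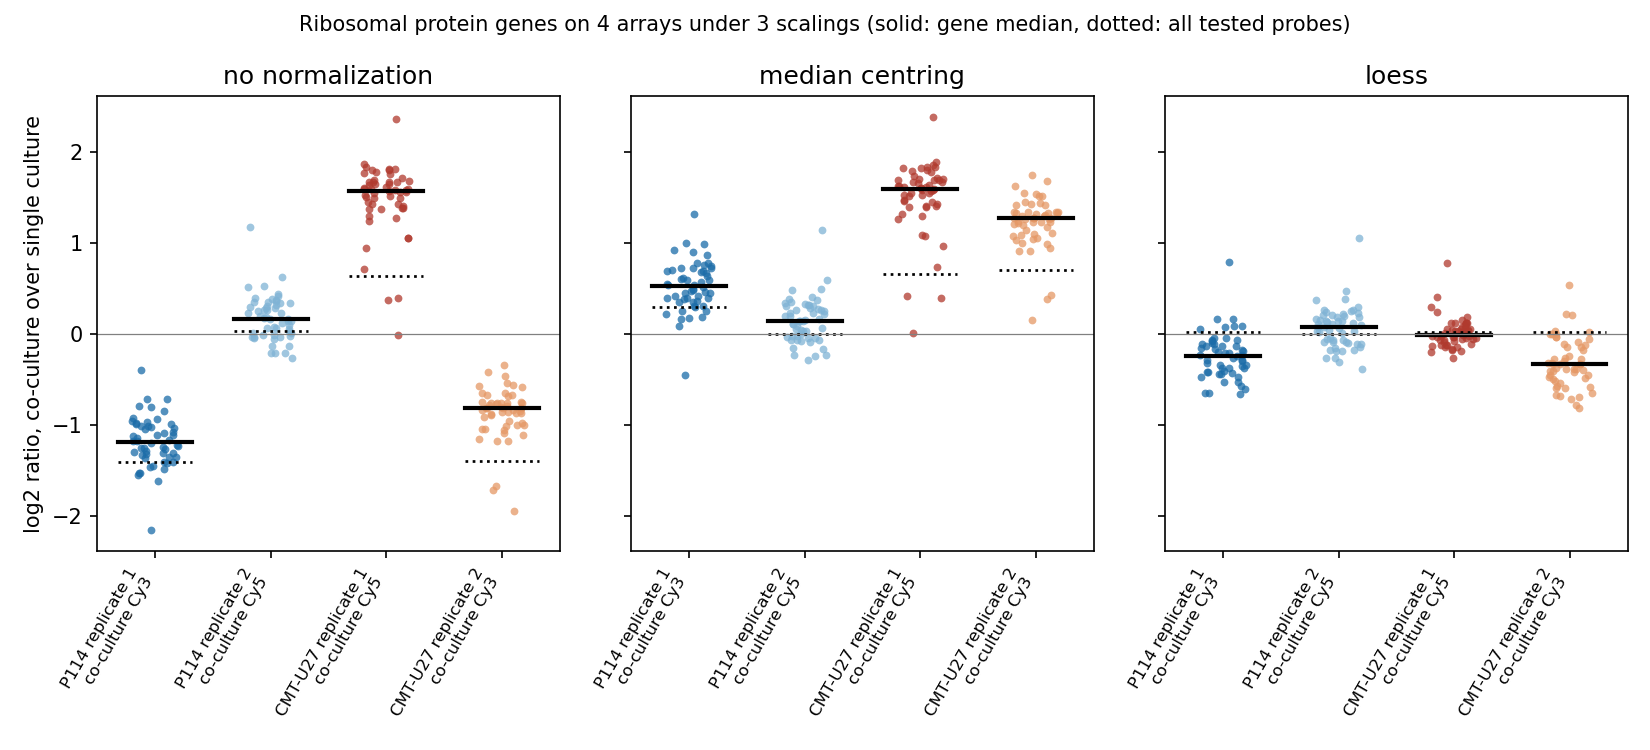
Log2 ratio of co-culture over single culture for the 54 genes (points) on each of 4 arrays, without normalization, after median centring and after loess; solid lines are the medians over the genes and dotted lines those over all 28692 tested probes. The gene median on CMT-U27 replicate 1 goes from 1.58 as scanned to 1.60 after centring and -0.01 after loess.

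Loess, which sets the ratio at each brightness to that of other probes of the same brightness, left no gene called in either line. After loess the median over the 54 genes was -0.23 and 0.08 for replicates 1 and 2 of P114 and -0.01 and -0.33 for those of CMT-U27, with 7, 34, 26 and 7 genes above 0. The 2 arrays with the co-culture in Cy3 thus had 47 of 54 genes below 0 each, and the 2 with it in Cy5 were near 0. In limma with a dye term the P114 median was -0.10, where the array medians differed by an SD of 0.22 (n = 2 arrays), and 0 genes were called of 28692 probes of which 0% were. The CMT-U27 median was -0.18 (SD 0.23, n = 2 arrays), and again 0 genes and 0% of all probes were called. All tested probes had medians of 0.01 and 0.02.

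Genes below 0 outnumbered those above 0 in both lines after loess, by 47 to 7 in P114 and by 50 to 4 in CMT-U27. At an unadjusted p under 0.05, which is no call, 21 genes were lower and 1 higher in CMT-U27, where 3.23% of all tested probes reached that level and 0.924% were lower. In P114 3 were lower and 1 higher, against 6.13% of all tested probes at that level and 2.34% lower. Without the dye term 2 genes reached that level in CMT-U27. Leaving out CMT-U27 replicate 2 gave a CMT-U27 median of -0.01, and leaving out replicate 1 gave -0.33. In P114 the median was 0.08 without replicate 1 and -0.23 without replicate 2, so its sign rested on 1 array. Both arrays of a line were below 0 for 16 genes in P114 (18.2% of all tested probes) and for 22 in CMT-U27 (13.2%). Both were above 0 for 3 genes in P114 (25.1%) and for RPL36A alone in CMT-U27 (37.4%). On all 4 arrays 7 genes were below 0, among them RPL13, RPL13A, RPL19, RPL21 and RPL30, as were 3.15% of all tested probes.

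Most ribosomal protein probes were among the brightest, and in the brightest 1% other probes had like ratios. In the brightest 1% the 61 ribosomal protein probes had centred medians of 0.56, 0.25, 1.64 and 1.28 on P114 replicates 1 and 2 and CMT-U27 replicates 1 and 2. The 226 other probes of that class had 0.57, 0.19, 1.67 and 1.23. After loess the same comparison gave -0.27, 0.14, 0.02 and -0.40 for the ribosomal protein probes and -0.26, 0.09, 0.02 and -0.45 for the others. These classes were set after the values were seen and carry no test. The brightest probes stood away from 0 after loess on the 2 arrays with the co-culture in Cy3, whether or not they measured ribosomal proteins. Over the 99 probes brightness and the CMT-U27 loess ratio had a Pearson correlation of -0.66 (Spearman -0.84), and in P114 one of -0.13 (Spearman -0.24). These probes share arrays and, for several genes, transcripts.

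**Figure D2:**
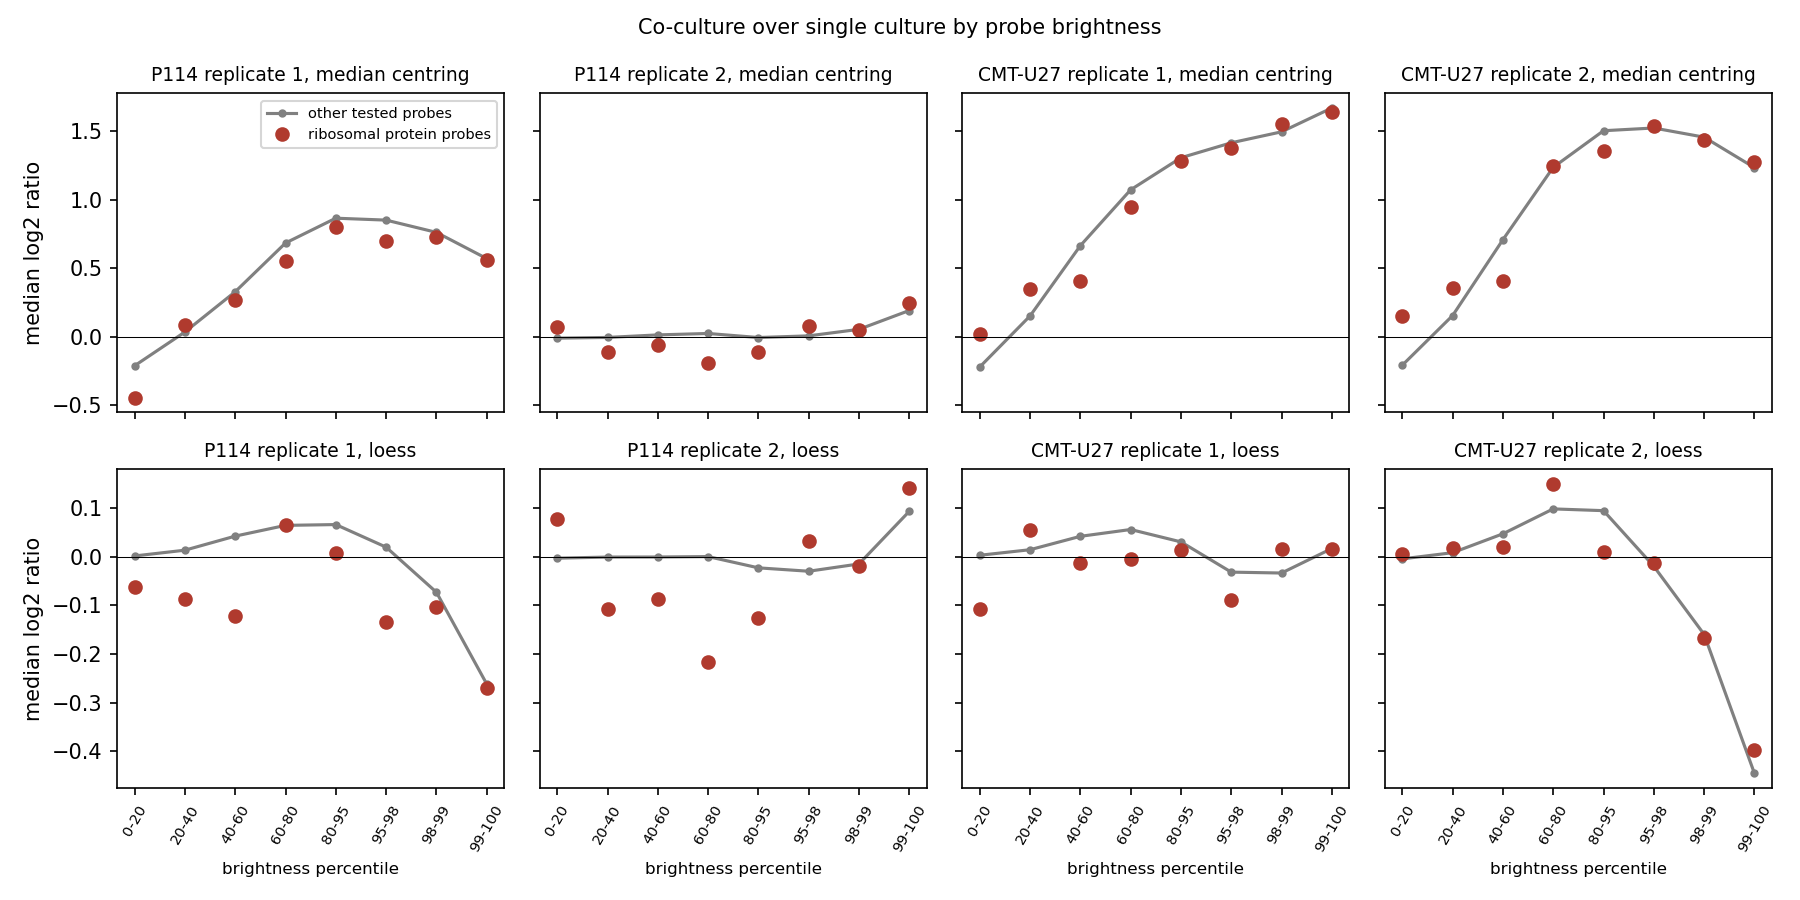
Median log2 ratio of co-culture over single culture against brightness percentile for ribosomal protein probes (red) and all other tested probes (grey), by array, after median centring (top) and loess (bottom); the axes of the rows differ. In the brightest 1%, with 61 ribosomal protein probes, the loess medians of both sets are -0.40 and -0.45 on CMT-U27 replicate 2, and the classes below the 80th percentile hold few ribosomal protein probes.

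The 2 arrays of a line were also compared by dye orientation. The dye component of a gene, Cy5 over Cy3, was taken as 0.5 times the gap between its 2 loess ratios in a line. It had a median of 0.16 in P114 and 0.17 in CMT-U27 over the 54 genes, and was above 0 in both lines for 36 of them. Over all tested probes it was above 0 in both lines for 24.3%, and over the 226 other probes of the brightest 1% for 80.1%. Across the 54 genes the dye components of the 2 lines, which share no array, had a Pearson correlation of 0.60 (Spearman 0.62). The co-culture ratios of the 2 P114 arrays had one of -0.40 across the genes, and those of the 2 CMT-U27 arrays one of -0.07. P114 replicate 1 and CMT-U27 replicate 2, of different lines but like orientation, had one of 0.67. Genes are not independent replicates, and these figures describe the arrays. With 2 arrays per line, a dye component and a difference between replicates cannot be told apart.

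Of the ribosomal stalk, which recruits the elongation factors, 3 genes were measured and 0 were called after loess. RPLP0, its base and a common reference gene, had loess ratios of -0.29 and 0.06 on P114 replicates 1 and 2 and -0.26 and -0.27 on CMT-U27 replicates 1 and 2. Its fitted value was -0.11 (SE 0.09) in P114 and -0.27 (SE 0.09, unadjusted p = 0.0407, adjusted p = 1 in limma) in CMT-U27, and its centred value in CMT-U27 was 1.42. RPL12, which binds beside it, stood at -0.11 and -0.26 in P114 and CMT-U27. RPLP2, a stalk tip protein, was measured by a probe in the dimmest 20% and stood at 0.01 and -0.05. It is the stalk gene whose centred ratio in CMT-U27 was near 0.

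Around the exit tunnel, through which the new chain leaves the ribosome, RPL35 had one of the lowest loess ratios in the set by its brightest probe. It stood at -0.64 and 0.20 on P114 replicates 1 and 2 and at 0.12 and -0.81 on CMT-U27 replicates 1 and 2, so its arrays disagreed in sign within each line. The fit gave -0.22 (SE 0.06) in P114 and -0.34 (SE 0.06) in CMT-U27, with unadjusted p-values of 0.0274 and 0.00665 and adjusted p-values of 0.797 and 1 in limma. Without the dye term the unadjusted p-values were 0.502 and 0.316. The other RPL35 probes stood at -0.10 and -0.08 in P114 and, in the same order, at -0.20 and 0.19 in CMT-U27. RPL4 and RPL19, of the same region, stood at -0.15 and -0.07 in CMT-U27. RPL26, which in other cells also binds the p53 mRNA, stood at -0.01.

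On the small subunit, RPS3, RPS15 and RPS23, near the mRNA entry and the decoding site, had CMT-U27 loess ratios of -0.20, -0.17 and -0.27. On the mRNA exit side RPS14, RPS28 and RPSA stood at -0.31, -0.28 and -0.23, and RPS26 at -0.03. RPSA, which is also known as the laminin receptor precursor, had -0.37, 0.21, -0.01 and -0.45 on P114 replicates 1 and 2 and CMT-U27 replicates 1 and 2. Of genes in which mutations cause inherited anaemia, RPS7, RPS10 and RPS24 stood at -0.12, -0.16 and -0.18 in P114 and at -0.20, -0.22 and -0.06 in CMT-U27. None of these genes passed the test over all probes.

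RPL24 and RPL36A stood at the upper end of both lines. RPL24, a protein of the subunit interface, had loess ratios of 0.08, 1.05, 0.79 and -0.03 on P114 replicates 1 and 2 and CMT-U27 replicates 1 and 2, high on both arrays with the co-culture in Cy5 and near 0 on the others. Its fit gave 0.56 (SE 0.07, unadjusted p = 0.00148, adjusted p = 0.797 in limma) in P114 and 0.38 (SE 0.07, unadjusted p = 0.00617, adjusted p = 1) in CMT-U27, and without the dye term the unadjusted p-values were 0.134 and 0.283. A second RPL24 probe, given with its sequence further on, stood at 0.07 and -0.05. RPL36A had 0.79, -0.26, 0.41 and 0.54, high on 3 arrays. Its fitted values were 0.27 (SE 0.18) and 0.48 (SE 0.18), with adjusted p-values of 0.861 and 1 in limma. RPL36A is given by a single probe, at chrX:75309601-75309660 (CanFam3.1).

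At the lower end in P114 lay RPL13A at -0.31, RPS26 at -0.27, RPL34 at -0.25, RPL35 at -0.22 and RPL27A at -0.22. RPL13A, which outside the ribosome takes part in the GAIT complex that silences inflammatory mRNAs, had -0.44 and -0.18 on the P114 arrays and -0.16 and -0.11 on the CMT-U27 arrays, below 0 on all 4 (P114 unadjusted p = 0.0243, adjusted p = 0.797 in limma). Among the lowest in CMT-U27 were RPL8 at -0.35, RPL35, RPL3 at -0.31 and RPS14. RPL8 had -0.19 and -0.52 on the CMT-U27 arrays and -0.64 and 0.47 on the P114 arrays. The other RPL8 probes stood at -0.12 and -0.01 in CMT-U27 and, in the same order, at -0.04 and 0.01 in P114. The plot of each gene by array shows the 2 orientations as separate bands on its left side.

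**Figure D3:**
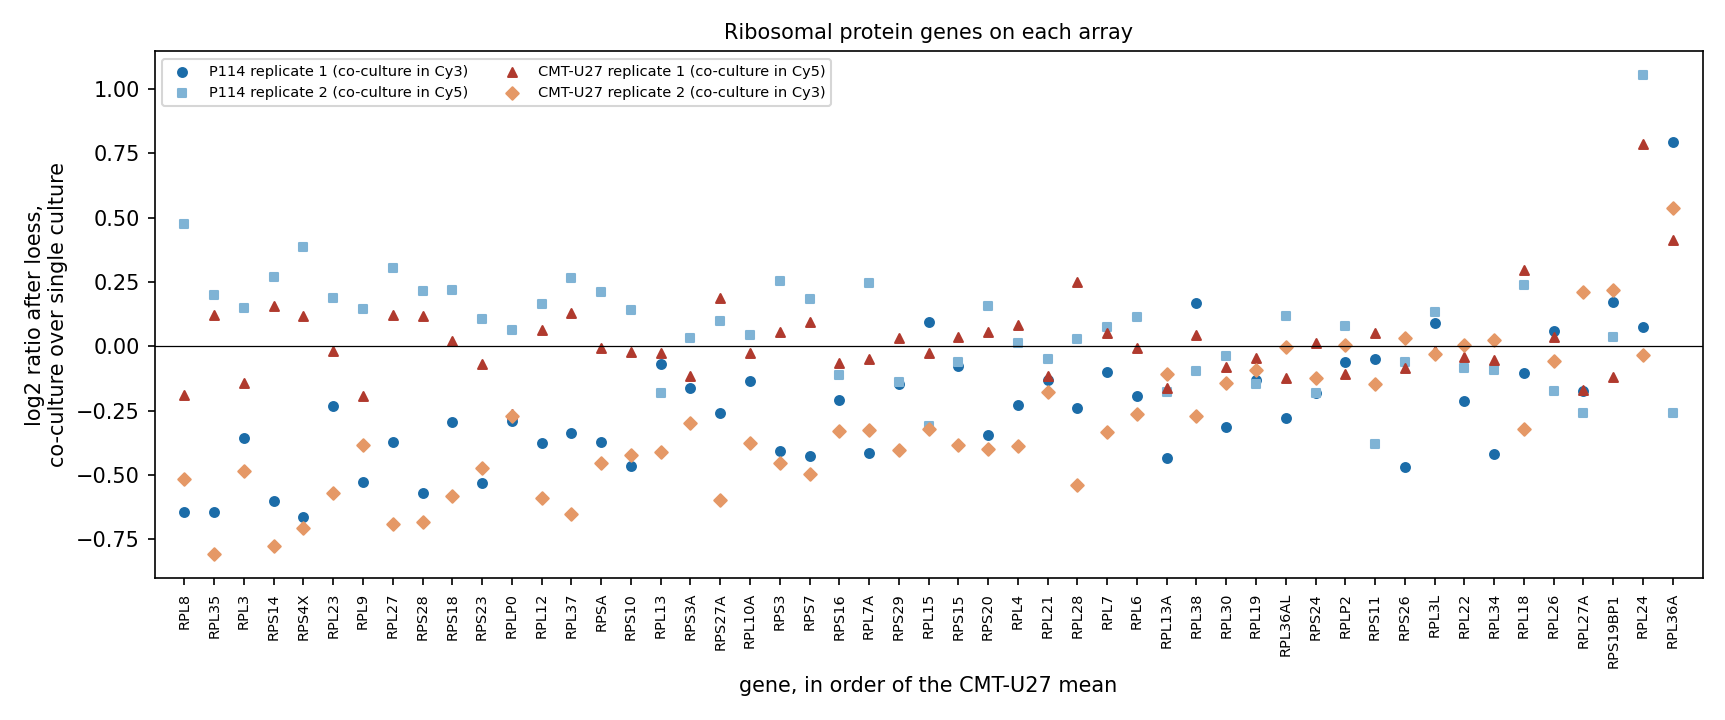
Loess log2 ratio of co-culture over single culture for 51 of the 54 genes on each array, in order of the CMT-U27 mean. At the left, RPL8 and RPL35 lie between -0.81 and -0.52 on the arrays with the co-culture in Cy3 (circles, diamonds), while RPL24 at the right reaches 1.05 and 0.79 on those with it in Cy5 (squares, triangles).

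The response of CMT-U27 minus that of P114 had a median of -0.09 over the 54 genes after loess, beside 0.01 over all tested probes. In limma 0 genes were called, as were 0% of all probes, and 2 had an unadjusted p under 0.05, both lower, against 2.86% of all tested probes of which 0.802% were lower. One of them was RPL23 at -0.27 (SE 0.09, unadjusted p = 0.0468, adjusted p = 0.9998 in limma). At the upper end lay RPL34 at 0.24, RPS26 at 0.24, RPL27A at 0.24, RPL36A at 0.21 and RPL13A at 0.17, and at the lower end, beside RPL23, RPL8 at -0.27, RPL27 at -0.25 and RPS18 at -0.24. The median moved from -0.26 to 0.10 as each array was left out.

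Between the lines in single culture, 7 ribosomal protein names differed. RPL3L and RPS19BP1 were higher in CMT-U27, and RPS26, RPL34, RPL13A, RPL22 and RPL21 were lower. These 7 of 54 stand beside 15.2% of all tested probes called, of which 8.23% were higher and 6.97% lower (limma separate-channel fit after loess and between-array scaling). The median over the 54 genes was 0.02, that over all tested probes 0.03, and 27 genes lay on each side of 0. Both CMT-U27 values lay above both P114 values for 18 genes (37.6% of all tested probes) and below them for 12 (33.4%), 71% of all tested probes in either direction. Without loess the median over the genes was -0.44, with 1 gene called higher and 7 lower, and 1172 probes called higher and 2960 lower.

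RPS26, a small-subunit protein at the mRNA exit channel, was the gene with the largest difference. Its log2 intensity in single culture was 12.82 and 12.83 on P114 replicates 1 and 2 and 10.41 and 10.31 on CMT-U27 replicates 1 and 2, a difference of -2.46 (SE 0.34, adjusted p = 0.00819), or 5.50-fold. The lines did not overlap. In co-culture the same probe read 12.35 and 12.76 in P114 and 10.32 and 10.34 in CMT-U27. Its position is chr10:364464-364523 on the plus strand (CanFam3.1).

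RPL3L, a copy of RPL3 that in adult tissues is made mainly in heart and skeletal muscle, differed the other way. Single-culture values were 7.83 and 7.87 in P114 and 9.91 and 10.06 in CMT-U27, a difference of 2.13 (SE 0.13, adjusted p = 0.000735 in limma), or 4.37-fold higher in CMT-U27. In co-culture the values were 7.93 and 8.01 against 9.89 and 10.03. RPL3 itself stood at -0.15 (SE 0.16, adjusted p = 0.595). RPS19BP1 read 12.34 and 12.33 in P114 and 13.18 and 13.11 in CMT-U27, a difference of 0.81 (SE 0.17, adjusted p = 0.0331).

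Of the 4 large-subunit genes that were lower in CMT-U27, RPL34 and RPL22 lay outside the brightest 20% of probes and RPL13A and RPL21 within it. RPL34 read 9.07 and 9.27 in P114 and 7.93 and 7.79 in CMT-U27, a difference of -1.31 (SE 0.29, adjusted p = 0.0356 in limma). RPL13A read 16.20 and 16.31 in P114 and 15.06 and 14.99 in CMT-U27, a difference of -1.23 (SE 0.23, adjusted p = 0.0224) by its brightest probe, while its other probe stood at -0.39 (adjusted p = 0.519). RPL22, which also binds RNA outside the ribosome and is lost in some cancers, read 8.80 and 8.56 against 7.93 and 7.77, a difference of -0.83 (SE 0.17, adjusted p = 0.030). RPL21 read 15.76 and 15.75 against 15.19 and 15.12, a difference of -0.60 (SE 0.13, adjusted p = 0.0306). The lines did not overlap for any of these 4 genes. In co-culture the line difference was -1.07 for RPL34, -1.06 for RPL13A, -0.70 for RPL22 and -0.66 for RPL21, given with no test.

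Most other ribosomal protein genes lay close to equal in the 2 lines. Next in order at the upper end came RPL15 at 0.66, RPL36A at 0.48, RPLP2 at 0.45 and RPL28 at 0.44, and at the lower end RPL26 at -0.57 and RPL30 at -0.51, none of them called. RPLP0 stood at 0.22 (SE 0.24, adjusted p = 0.61 in limma) and RPSA at 0.04 (SE 0.15, adjusted p = 0.881). RPL36AL, the retrogene copy of RPL36A, stood at -0.06 (SE 0.33, adjusted p = 0.93). Leaving out 1 array leaves 1 in a line, and fewer than the 7 genes were then called each time. Over all tested probes, too, fewer were called when a CMT-U27 array was left out. In these fits RPS26 ran from -2.51 to -2.41, RPL3L from 2.05 to 2.21 and RPS19BP1 from 0.78 to 0.85. RPL34 ran from -1.41 to -1.22, RPL13A from -1.29 to -1.18, RPL22 from -0.95 to -0.71 and RPL21 from -0.64 to -0.56. The 7 differences kept their sign in all 11 alternative settings, but so did those of genes outside the 7, RPL26 and RPL30 among them. With all arrays kept, RPS19BP1 and RPL21 were not called without background correction. RPS19BP1, RPL22 and RPL34 were not called with quantile scaling over all channels, and none of the 7 was without scaling between arrays.

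**Figure D4:**
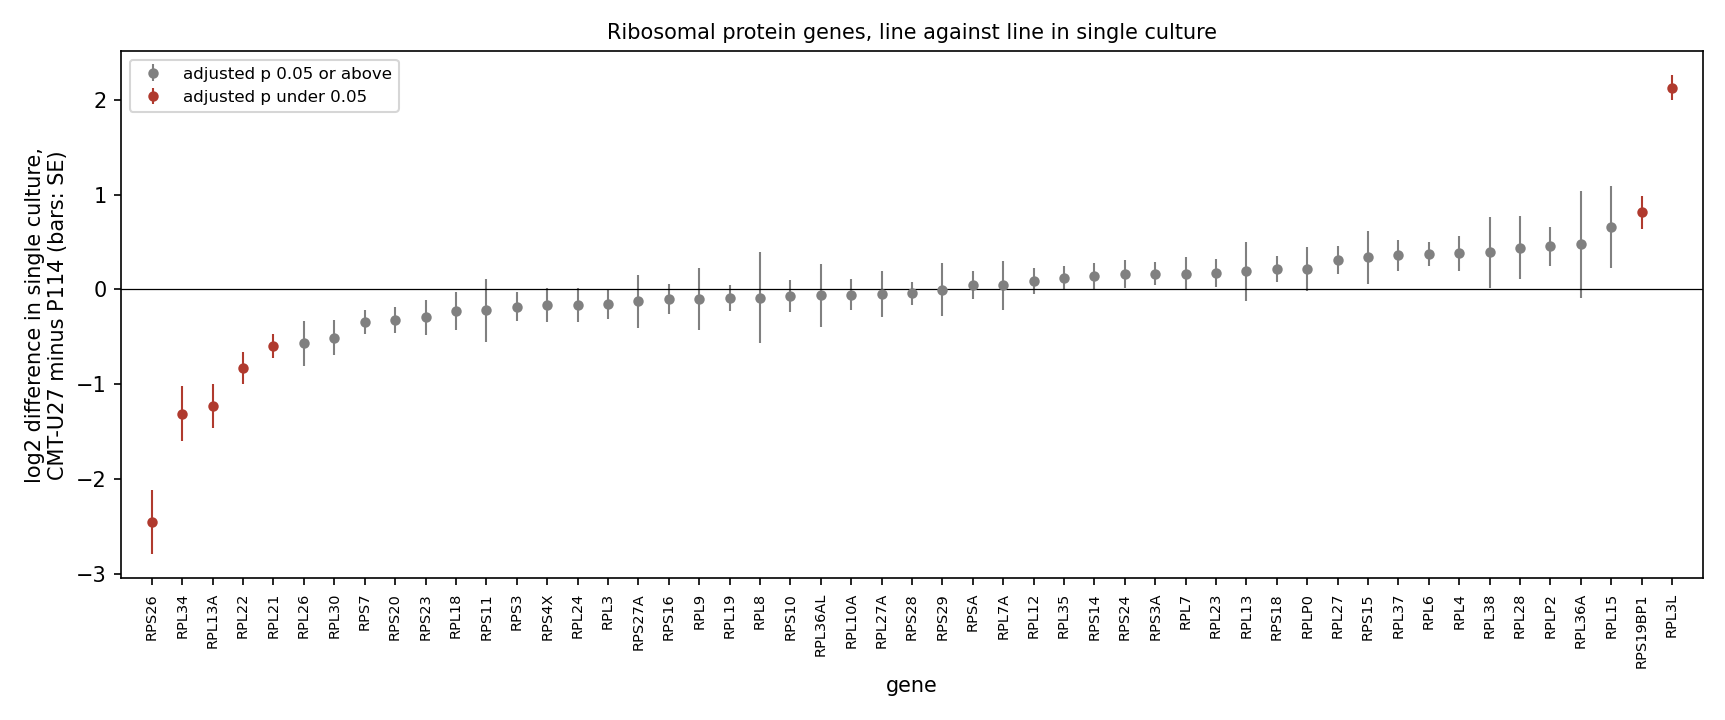
Log2 difference in single culture, CMT-U27 minus P114, with its SE, for 51 of the 54 genes in order; red points have an adjusted p under 0.05 in limma. RPS26 at -2.46 and RPL3L at 2.13 lie at the ends, and the other red points are RPL34, RPL13A, RPL22, RPL21 and RPS19BP1.

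Several of these genes were read by more than 1 probe, each at its own genome position. Which exon or untranslated region a probe reads is not stated, since no transcript annotation was at hand. The files place probes on CanFam3.1 and give 60 bases for each. Among the 99 ribosomal protein probes, 30 (30.3%) hold AATAAA, the signal for cleavage and polyadenylation near the end of most mRNAs, against 8.67% of all 43603 probes, searched on the printed strand alone. The positions of 18 of the 99 span more than 60 bases of genome, so that the probe is split by at least 1 gap, as those of 16.9% of all placed probes do. A match is a string of letters and no measured site. Probes that carry the differences above are shown whole where they are split in this way and otherwise as a 30-base window, with AATAAA in capitals, on the transcript strand from 5′ to 3′.

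RPL3L, first probe, chr6:38978134-38979454, plus strand: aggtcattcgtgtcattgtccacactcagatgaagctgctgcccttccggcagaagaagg
RPL3L, second probe, chr6:38980142-38980598, plus strand: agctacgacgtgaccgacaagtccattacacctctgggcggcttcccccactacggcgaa
RPS26, bases 1 to 30, chr10:364464-364523, plus strand: aacattcaagcgttatgttgagcgttatgc
RPL13A, bases 1 to 30, chr1:107010526-107010585, minus strand: aacctggggcttacagtactgggaacacaa
RPL21, first probe, bases 31 to 60, chr25:12327081-12327139, minus strand: gataactataaagaaAATAAAagacctcag
RPL21, second probe, bases 20 to 49, chr25:12326377-12326436, minus strand: ttgggatagtagAATAAAgtccttacacct
RPL24, first probe, bases 31 to 60, chr33:8018190-8018249, minus strand: gatcagatttttaAATAAAcatctgactct
RPL24, second probe, chr33:8018270-8019646, minus strand: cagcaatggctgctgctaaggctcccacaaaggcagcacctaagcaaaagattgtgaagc

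RPL3L differed between the lines by its first probe and not by its second. The second probe read 7.80 and 7.59 in P114 and 7.65 and 7.71 in CMT-U27, a difference of -0.02 (SE 0.14, adjusted p = 0.957 in limma), beside 2.13 for the first. Both probes are split over stretches of chromosome 6, and both stood above background in all 8 channels. The 2 probes of RPL24 differed in co-culture, with 0.56 and 0.38 at the first, which holds AATAAA, and 0.07 and -0.05 at the second, in P114 and CMT-U27.

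Some probes placed further toward the 3′ end than a gene's brightest probe gave lower values in CMT-U27, at RPL21, RPL15 and RPS3. The distances are in bases of genome, and whether both probes lie in the same transcript was not tested. RPL21 was lower by both of its probes, and its dim second probe, 703 bases further 3′, read 10.43 and 10.53 in P114 and 8.97 and 8.88 in CMT-U27, a difference of -1.56 (SE 0.12, adjusted p = 0.00145 in limma). RPL15 was lower by 2 of its 5 probes, at -0.69 and -0.66 (adjusted p = 0.0308 and 0.0377), 1605 and 291 bases further 3′ than its brightest probe, which stood at 0.66. An RPS3 probe 277 bases further 3′ than the brightest stood at -0.89 (SE 0.22, adjusted p = 0.0486), where the brightest stood at -0.18. Of the 45 probes that were not the brightest of their gene, 43 lay on the same chromosome and strand as the brightest, and 23 of these further 3′. Some of these 23 were shifted by only 6 to 46 bases. Of the 45, 5 were called, against 15.2% of all tested probes, with 6.97% called lower. All 5 were lower in CMT-U27 and all were among those 23. They were also dimmer than the brightest probe of their gene, by 1.61 to 5.65 on the log2 scale. The part of brightness in these differences was not tested. Probes of RPL13 and RPL3L, 660 and 2008 bases further 3′, were also among the 23 and stood at 0.14 and -0.02.

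Probes of other genes differed as well, and the widest gap in the CMT-U27 co-culture ratio, 0.53, was at RPL35. Among the 29 genes with several probes, the line differences in single culture had a gap under 0.50 at 18 and over 1 at 4, and the probes of 12 genes had both signs. In co-culture the probes of a gene lay within 0.20 of each other at 25 genes in P114 and at 21 in CMT-U27. With every probe in place of the brightest, 12 of 99 were called between the lines, 2 higher and 10 lower. Of all tested probes 15.2% were called, 8.23% higher and 6.97% lower. Probes with a GC content of 40% or less had a median line difference of -0.16 (40 probes) and the others one of 0.09 (59 probes), and over the 99 probes GC content and line difference had a Pearson correlation of 0.29.

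**Figure D5:**
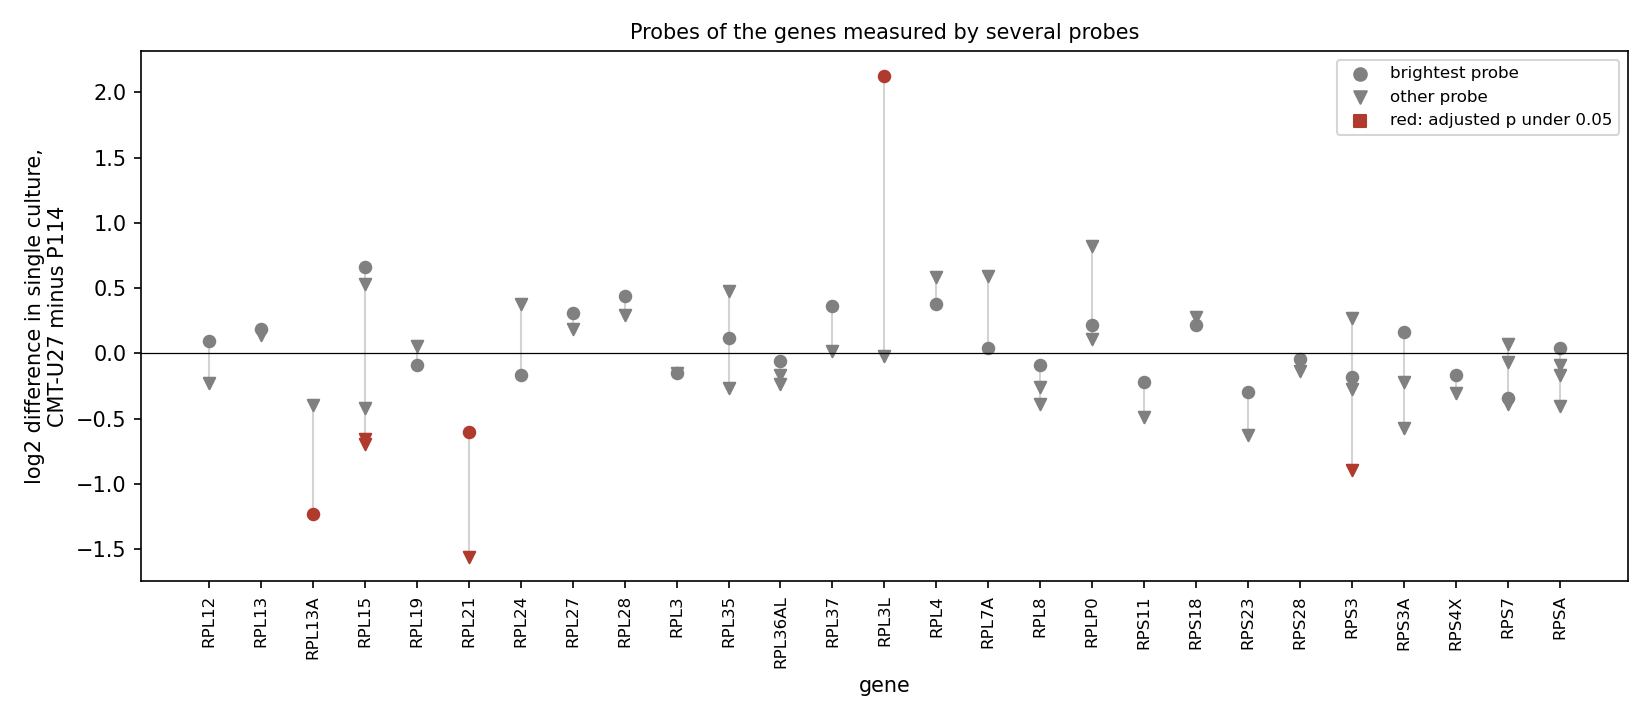
Log2 difference in single culture, CMT-U27 minus P114, for the probes of 27 of the 29 genes with several probes; circles are the brightest probe of a gene, triangles its other probes, and red marks an adjusted p under 0.05 in limma. The probes of RPL3L lie at 2.13 and -0.02, and the 4 red triangles, at RPL15, RPL21 and RPS3, all lie below 0.

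Paralogs that the naming rule leaves out showed line differences of their own. RPL26L1, a near copy of RPL26, read 10.47 and 10.71 in P114 and 12.75 and 12.64 in CMT-U27, a difference of 2.11 (SE 0.14, adjusted p = 0.000916 in limma), or 4.31-fold, while RPL26 stood at -0.57 (SE 0.24, adjusted p = 0.186). RPL22L1, the partner copy of RPL22, stood at 0.11 (SE 0.23, adjusted p = 0.81) by its brightest probe and at -1.94 and -2.46 (adjusted p = 0.002 and 0.00143) by its other 2. Its co-culture ratio in CMT-U27 was -0.41 by the brightest probe (SE 0.09, unadjusted p = 0.0106, adjusted p = 1) and -0.01 and 0.01 by the others. How far probes of such copies also bind each other's transcripts was not tested.

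Genes that work with the ribosome were set beside the ribosomal protein genes as counts. Under median centring in CMT-U27, 14 of 14 translation factors with pyrimidine-tract mRNAs, 50 of 51 ribosome assembly factors, 22 of 23 RNA polymerase I and III genes and 62 of 62 mitochondrial ribosomal protein genes were called higher, with medians of 1.47, 1.41, 1.32 and 1.42. The ribosomal protein median was 1.43 and the share of all probes called higher is given above. After loess 0 of these genes were called, and their CMT-U27 medians were -0.07, 0.04, 0.05 and 0.05, beside -0.18 for ribosomal proteins. The translation factor genes TPT1 and EEF1B2 each stood at -0.24 (adjusted p = 1 in limma). Between the lines in single culture, where 8.23% of all tested probes were higher and 6.97% lower, 3 of 14 translation factors were higher and 0 lower, led by EIF3G at 0.84 (SE 0.13, adjusted p = 0.0118) and EIF4A2 at 0.94. Of the assembly factors 6 were higher, with IMP3 at 1.42 and PES1 at 1.06, and 1 lower. Of the mitochondrial ribosomal protein genes 8 of 62 were higher and 3 lower. Among 21 regulators of ribosome production 1 was called, against 15.2% of all tested probes: MDM2, the p53 ligase that free ribosomal proteins inhibit, at -1.67 (SE 0.15, adjusted p = 0.00209). The lists were drawn up with earlier results of these data known.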

How the data were processed

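RNA of co-cultured and single-cultured stem-like cells was measured on 4 dye-swapped 2-colour Agilent arrays of 1 slide (design 021193). The deposited scanner files hold linear intensity per spot. Agilent Feature Extraction wrote them, in version 10.10.1.1 per the file headers and 10.7.3.1 per the submitters' processing notes. The deposited log10 ratio (red over green) equalled the series value table, with a largest gap of 0 and column medians of 0, and was used as an alternative. Deposited spot flags, a score of 0 or 1, served as filters, and no spot was saturated (0 on each array).

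Mean intensities were corrected with normexp (offset 50) and loess within arrays, control spots at weight 0. Outlier spots were left out, spots of a probe were averaged, and a probe was kept if some line and culture had it well above background on both its arrays. Tests used limma 3.58.1 in R 4.3.3, with Benjamini-Hochberg adjustment over all 28692 probes at 0.05. The ratio model had 1 coefficient for each line plus a dye term (1 residual and 2.76 prior degrees of freedom). Single cultures of the lines were set against each other with lmscFit, which models channels separately, after Aquantile (3 residual and 2.70 prior degrees of freedom, intraspot correlation 0.936). The number of arrays limits precision. The scripts were tested on simulated data. Figures used Python 3.11.15 and matplotlib 3.10.9.

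The genes, lists and tests were chosen with earlier results of these data known. Named are the 5 highest and 5 lowest genes of each comparison, up to 10 called in each direction, RPLP0, RPSA and paralog copies, and up to 2 genes of each other list with the smallest p. Some items that this rule names are not reported here, though counts and medians include them. Alternatives changed background correction, normalization, filter, dye term, probe choice and arrays. Of the 54 names, 53 were found in the RefSeq table of UU_Cfam_GSD_1.0, used for names alone. Replicate numbers follow record order.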

Additional observations from a re-analysis of the deposited data

Results flagged for a closer look

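RPL3L had opposite signs in the 2 lines after loess. Its co-culture ratio was above 0 on both P114 arrays (0.09 and 0.13) and below 0 on both CMT-U27 arrays (-0.02 and -0.03), which is what brought it here. The fitted difference, CMT-U27 minus P114, was -0.137 on the log2 scale, with an unadjusted p of 0.195 and an adjusted p of 0.9998 in limma, so the difference did not pass its test. For its second probe the ratios were -0.10 (P114) and 0.04 (CMT-U27). No group had the 4 arrays that a check for single outlying arrays needs.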

How the results depend on the processing

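With 2 arrays per line and 1 residual degree of freedom, the SD between arrays after loess was larger than the mean ratio at 39 of 54 genes in P114 and 41 in CMT-U27. Under median centring the called genes numbered 0 in P114, 52 in CMT-U27 and 51 for the difference between lines, with medians of 0.35, 1.43 and 1.06. Without normalization they numbered 10, 4 and 0, with medians of -0.49, 0.37 and 0.84. Of all 28692 probes without normalization, 6 were called higher and 17516 lower in P114. In CMT-U27 these numbers were 115 and 11849, and for the difference 79 and 13. In the fits that each left out 1 array, medians ran from -0.23 to 0.08 in P114 and from -0.33 to -0.01 in CMT-U27. For the difference they ran from -0.26 to 0.10. These fits have no dye term. Without background correction, or with the scanner software's log ratio, both other filters or marked spots kept, 0 genes were called in these 3 comparisons. The same held for no dye term and every probe. Of all 28692 probes, 12 were called higher in CMT-U27 and 1 for the difference without background correction. The filter on all channels called 1 of 23423 probes, higher in CMT-U27.

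Between the lines in single culture, 7 genes were called as reported, 4 with quantile scaling over all channels, 0 with no scaling between arrays, 11 without the dye term, 12 of 99 probes with every probe, and from 0 to 5 as each array was left out. Of all 28692 probes, 2376 were called higher and 1908 lower with quantile scaling, and 5011 and 4374 without the dye term. With no scaling between arrays 0 probes were called. The median over the genes was -0.44 without loess and -0.26 without scaling between arrays, and ran from -0.12 to 0.16 as each array was left out. The cause of these shifts was not tested.

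Single genes also changed sign. Under median centring RPL13A gave 0.16 (P114) and 1.46 (CMT-U27), and RPL35 gave 0.25 and 1.38. Without normalization RPL13A stood at 0.40 and RPL35 at 0.32 in CMT-U27, and RPL36A at -0.30 in P114. As each array was left out, RPL24 ran from -0.033 to 0.785 in CMT-U27, RPL35 from -0.64 to 0.20 in P114 and from -0.81 to 0.12 in CMT-U27, and RPL36A from -0.26 to 0.79 in P114. Each ratio pairs the co-culture and the single culture of a line on the same array. Arrays could not be paired across lines, because the replicate numbers follow record order.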

Other observations

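Further probes describe ribosomal proteins in words without a symbol, and 9 of 12 with an Ensembl description of this kind were tested. RPS6, the ribosomal target of the S6 kinases, was among them. Its loess ratios were -0.40 and 0.27 on P114 replicates 1 and 2 and 0.17 and -0.63 on CMT-U27 replicates 1 and 2, low on both arrays with the co-culture in Cy3. It stood at -0.07 in P114, at -0.23 in CMT-U27 and at -0.04 between the lines in single culture (SE 0.14, adjusted p = 0.884 in limma). The 9 probes had medians of -0.06 in P114 and -0.18 in CMT-U27 after loess, and of 1.43 in CMT-U27 after median centring. Between the lines 0 of the 9 were called in limma, against 15.2% of all tested probes. Probes described as RPL30 and RPS14 stood at -0.48 (adjusted p = 0.0536) and 0.61 (adjusted p = 0.0774). The largest difference was that of a probe described as RPL6, at 1.097 (SE 0.36, adjusted p = 0.109), while the brightest probe of the RPL6 symbol stood at 0.37 (SE 0.13, adjusted p = 0.113).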
